A study of Mus musculus with 6 samples.

Results

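Endothelial cells are told from other cells by proteins that they display on their surface or secrete. The 10 genes examined here code for such proteins: Cd34, Egfl7, Ecscr, Emcn, Mcam, Plvap, Clec14a, Cd93, Ramp2 and Calcrl. They were chosen by name, with earlier results of these data known. Their probes were found by the gene that the array annotation gives for each probe sequence. The 10 genes had 14 probes, each printed at 1 spot, out of 36726 genes and 55681 probes on the array. No gene symbol was found for 26332 of all probes, and their targets are counted as genes in every share over all genes. Cd34, Mcam, Plvap and Clec14a had 2 probes each, and the others had 1.

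Expression was compared between 1G11-mock and 1G11-SOD3 cells. 1G11 is a mouse microvascular endothelial cell line, labeled as strain C57BL/6NCrLBR, and 1G11-SOD3 cells overexpress superoxide dismutase-3, an enzyme that removes superoxide outside the cell. Before RNA was taken, both lines spent 6 h in conditioned medium of N202.1A, a mouse mammary cancer line, so that the controls had the same exposure. Whether each line is a clone or a mixed population is not given in the sources used here. There were 3 arrays per cell line, labeled as biological replicates, with no untreated cells. The arrays were made to look for a route by which SOD3 might act on the expression of laminin α5, and here the comparison is described for markers that define the endothelium.

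The markers work in different ways. CD34, endomucin (Emcn) and MCAM (CD146) are membrane glycoproteins that help to govern adhesion between endothelial cells and leukocytes or matrix, and CD34 is also carried by blood progenitors and by some fibroblasts. EGFL7 is secreted and binds the matrix, its gene hosting the endothelial microRNA miR-126. ECSCR is a small membrane protein that modulates endothelial migration and survival. PLVAP forms the diaphragms of fenestrae and caveolae. CLEC14A and CD93 are lectin-like receptors of the sprouting endothelium that bind the matrix protein multimerin-2. CALCRL is a G protein-coupled receptor that becomes the receptor of adrenomedullin when RAMP2, its accessory subunit, is present.

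Of the 59305 non-control spots, 34.2% to 43.8% on each array passed the test of the Agilent software for a signal well above background, and none was flagged as saturated. Sod3, the check of the labels, had a log2 intensity between 9.86 and 13.61 on the mock arrays and between 16.26 and 16.37 on those of SOD3 cells. Its spot lies in the dim middle of the array described below, and its log2 fold change was 4.27 before and 2.01 after adjustment for place (limma adjusted p = 0.00786 and 0.00446). All 1G11-mock arrays lay in one row of the slide and all 1G11-SOD3 arrays in the other, so that cell line and slide row cannot be told apart. The endothelial label was compared with 15 other endothelial markers. Of these, 5 (Kdr, Eng, Esam, Vwf and Nos3) were well above background on all 6 arrays and 6 on none. The latter included Cdh5, which codes for VE-cadherin, the junctional protein that defines the endothelium, besides Tek, Tie1, Robo4, Erg and Sox17. Pecam1, which codes for CD31, was well above background on 2 arrays of each cell line. An absence of these transcripts cannot be inferred from a signal near background, and the methods of the study state that the line was checked by staining for VE-cadherin protein.

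Of the 14 probes, 4 were well above background on all 6 arrays: both Cd34 probes, 1 of the 2 Mcam probes and the Ramp2 probe. Another 4 were so on some arrays: the Egfl7 probe on 2 arrays of mock and 3 of SOD3 cells, the Ecscr probe on 1 and 3, and the Plvap probes on 0 and 3 and on 1 and 1. The remaining 6 probes, which are those of Emcn, Cd93 and Calcrl, both of Clec14a and the second of Mcam, were well above background on no array. Hence 4 genes, Emcn, Clec14a, Cd93 and Calcrl, had no measured level. This is 40% of the members against 47.6% of all genes on the array, a base that includes targets without a gene symbol. For these only an intensity near background is known, and an absence of the transcript cannot be inferred from it.

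The probes are 60 bases long, and the sequences that bear on the results are those behind the Cd34, Egfl7, Ramp2, Mcam and Plvap signals. Where the printed stretch holds AATAAA, the common polyadenylation signal, it is in capitals. AATAAA occurs in 3 of the 13 member probes whose sequence was read and in 10.1% of all probes. Cd34 probe A_55_P2009225 and Plvap probe A_55_P2049186 hold none, have 2 reading frames without a stop, and are given whole. Capitals in the Mcam stretch mark its alternating GT units. The sequences are the deposited ones, 5′ to 3′.
Cd34 A_51_P204740, bases 23 to 52: tattctcttctgAATAAAcgtgatgagtga
Cd34 A_55_P2009225, bases 1 to 60: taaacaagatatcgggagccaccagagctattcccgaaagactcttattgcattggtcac
Egfl7 A_55_P2111355, bases 31 to 60: ccatctttgtcatAATAAAgctgagacttg
Ramp2 A_55_P2101336, bases 30 to 59: tgtagtctttaaAATAAAgttatgtttttg
Mcam A_55_P1986552, bases 10 to 39: tttgagGTGTGTGTGTGTGTGTGTGTatac
Plvap A_55_P2049186, bases 1 to 60: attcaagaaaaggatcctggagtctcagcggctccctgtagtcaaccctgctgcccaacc
The array annotation places the Cd34 probes at chr1:196787392-196787451 and chr1:196785280-196785339, the Egfl7 probe at chr2:26448142-26448201, the Ramp2 probe at chr11:101109501-101109560 and this Mcam probe at chr9:43950664-43950723, all on the plus strand, and this Plvap probe at chr8:74030739-74030798 on the minus strand. The genome build of these positions and the exons that they fall in are not given in the sources used here.

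**Figure D1:**
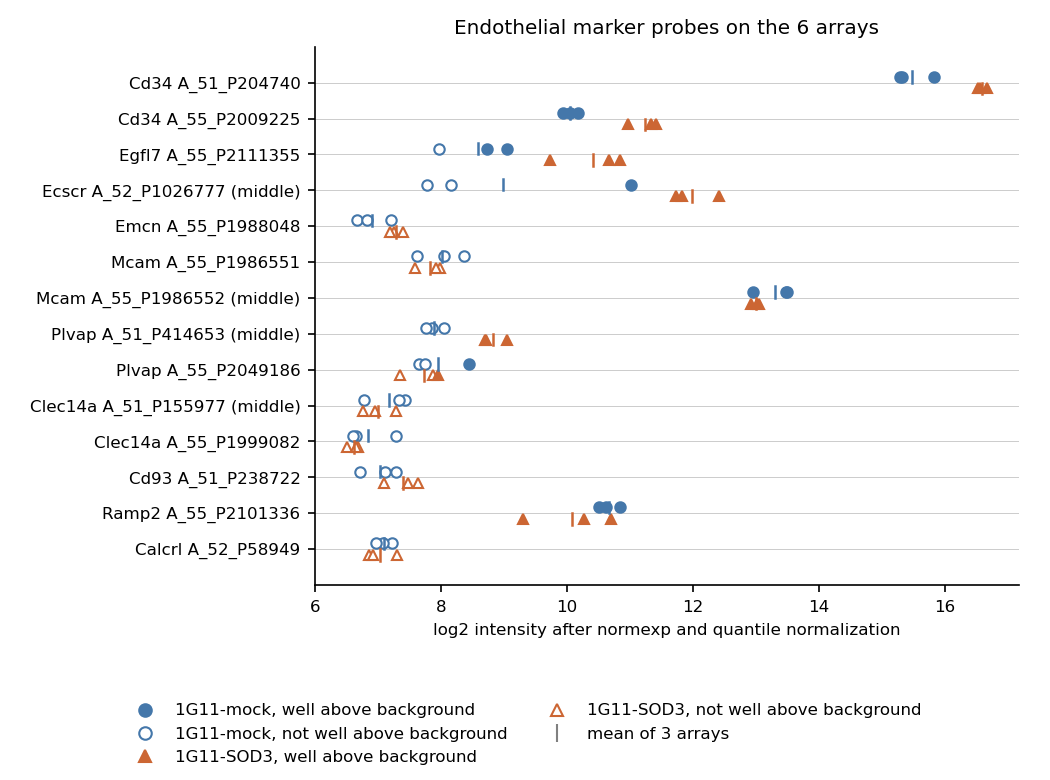
Log2 intensity (x axis) of the 14 probes (y axis) on the 3 1G11-mock arrays (circles) and the 3 1G11-SOD3 arrays (triangles), with the mean of each group as a bar; filled symbols are well above background and "(middle)" marks spots in the middle of the array. Groups are to be compared within a probe, since brightness also depends on the probe sequence: Cd34 is higher on every 1G11-SOD3 array at both probes, whereas 6 probes have open symbols on all 6 arrays.

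The place of a spot entered into the values, and it touched the members unequally. With the 384 rows and the 164 columns each divided into 3 equal stretches, the central block is here called the middle. There, bright spots (mean log2 intensity over 9) had a median log2 fold change (1G11-SOD3 minus 1G11-mock) of 1.34, against -0.16 elsewhere. The Ecscr probe, 1 Mcam probe, 1 Plvap probe and 1 Clec14a probe lie in the middle, and the Egfl7 probe lies 6 rows above it. Each result is thus given also after a position adjustment, in which the smooth pattern of each array, scaled to the brightness of the spot, was taken off. The adjustment brought the median of bright middle spots to 0.05, which follows from its being fitted to bright spots. A check was made on 210 bright probes printed more than once, which were left out of the fit. Among copies of 1 such probe the SD of the difference fell from 0.714 to 0.161. Dim probes were not part of that check. A probe was called changed at over 2-fold and a limma p, adjusted over all 55681 probes, under 0.05.

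**Figure D2:**
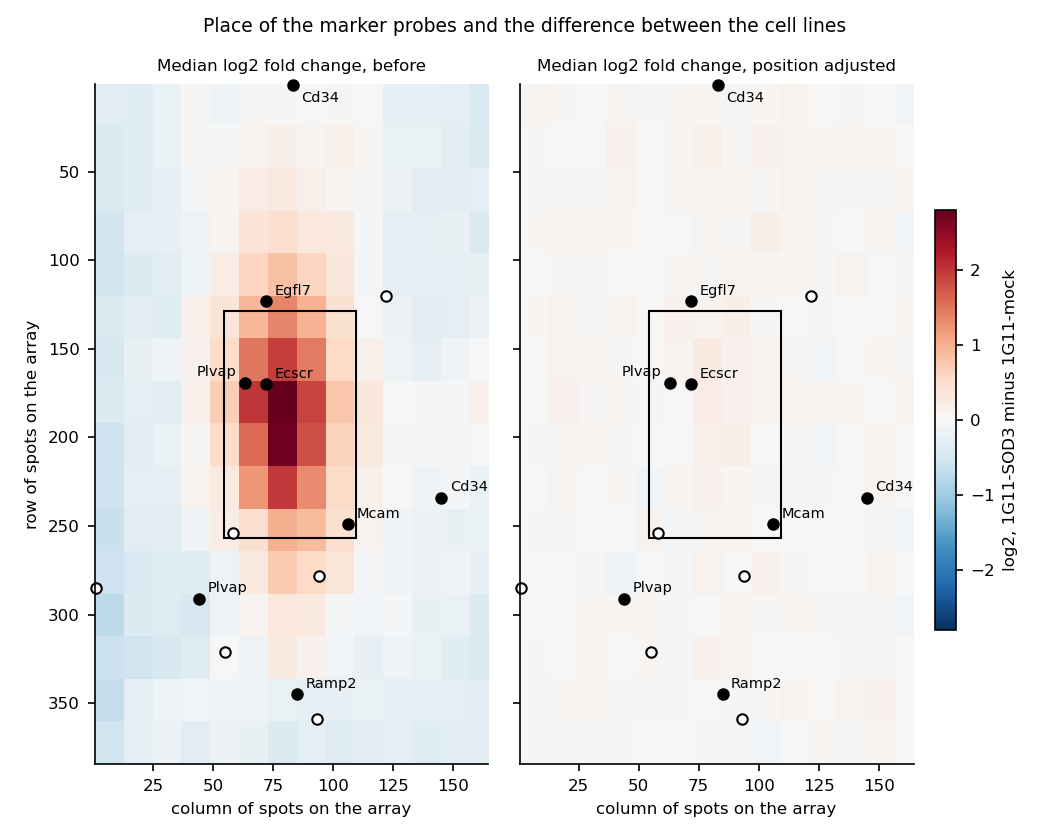
Median log2 fold change (color, 1G11-SOD3 minus 1G11-mock) of spots that 3 or more arrays measured well above background, in blocks of 24 rows (y axis) and 12 columns (x axis) of the array, before (left) and after (right) position adjustment; the rectangle is the middle, filled points are member probes well above background on at least 1 array and open points the other member probes. Ecscr and a Plvap probe lie where the color is deep before adjustment, and both Cd34 probes lie where it is pale.

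Before adjustment, 3 of the 10 genes (each by its brightest probe) were called higher in 1G11-SOD3 cells, which were Cd34, Egfl7 and Ecscr, and none was called lower. Over all genes 2.14% were called higher and 1.28% lower. Since the genes were chosen with earlier results of these data known, these shares are no test of the set. Per probe, 4 of 14 were called higher, against 1.87% of all probes and 11.6% of the probes in the middle. After position adjustment only Cd34 was called, through both of its probes, where 0.806% of all genes and 0.618% of all probes were called higher. The median log2 fold change of the 10 genes was 0.37 before and 0.21 after adjustment, beside -0.037 and 0.0053 over all genes. Both medians include the 4 genes that were well above background on no array. The one before adjustment lies between the values of Cd93 and Emcn, which belong to these, so no shift of the set can be read from it. In bulk RNA, fewer cells that express a gene and less RNA per cell cannot be told apart.

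Cd34 was higher in 1G11-SOD3 cells at both of its probes. Probe A_51_P204740 had log2 intensities of 15.31, 15.82 and 15.28 in replicates 1, 2 and 3 of 1G11-mock, and of 16.66, 16.56 and 16.52 in those of 1G11-SOD3. Probe A_55_P2009225 had 9.94, 10.04 and 10.17 on the former and 10.96, 11.33 and 11.40 on the latter. The groups did not overlap at either probe, as was so of 20.6% of all probes, and the lowest 1G11-SOD3 array stood above the highest 1G11-mock array by more than the range within 1G11-mock at each of them. The difference was 2.15-fold (log2 1.11 ± 0.23 SE, limma adjusted p = 0.0269) at the first probe and 2.27-fold (log2 1.18 ± 0.23 SE, adjusted p = 0.0169) at the second.

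Cd34 lies away from the middle, with 1 probe in row 1 and the other in row 234, column 145. Adjustment for place left differences of 2.08-fold (log2 1.06, 95% interval 0.65 to 1.47, limma adjusted p = 0.0179) and 2.55-fold (log2 1.35, interval 0.91 to 1.80, adjusted p = 0.0066). The mean pattern taken off at the spots differed between the cell lines by 0.031 and -0.12. On single arrays it was larger at the second probe, with -0.47 and 0.32 on 1G11-SOD3 replicates 1 and 2. The adjusted values there were 9.95, 10.01 and 9.91 for 1G11-mock and 11.46, 11.04 and 11.44 for 1G11-SOD3. The range within 1G11-SOD3 at this probe was 0.44 before and 0.42 after adjustment. After adjustment the 1G11-mock arrays were within 0.18 of each other at the first probe, from 15.44 to 15.62, and the 1G11-SOD3 arrays ran from 16.53 to 16.59. The probes share no sequence, and they gave log2 fold changes 0.076 apart before and 0.30 apart after adjustment. With 1 array left out in turn and place adjusted, the second probe was called in 6 of 6 fits (adjusted p 0.0094 to 0.041). The first was called in 2 of 6 (0.049 to 0.088), which were those without 1G11-mock replicate 2 and without 1G11-mock replicate 3, its log2 fold change staying between 1.03 and 1.11. Fewer of these fits called the probes without adjustment (3 of 6 for the second, adjusted p 0.032 to 0.078, and 1 of 6 for the first, 0.036 to 0.11) and with the surface unscaled for brightness (4 of 6, 0.019 to 0.089, and 1 of 6, 0.039 to 0.15), limma being used throughout. The brightness scaling was chosen after seeing the data.

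**Figure D3:**
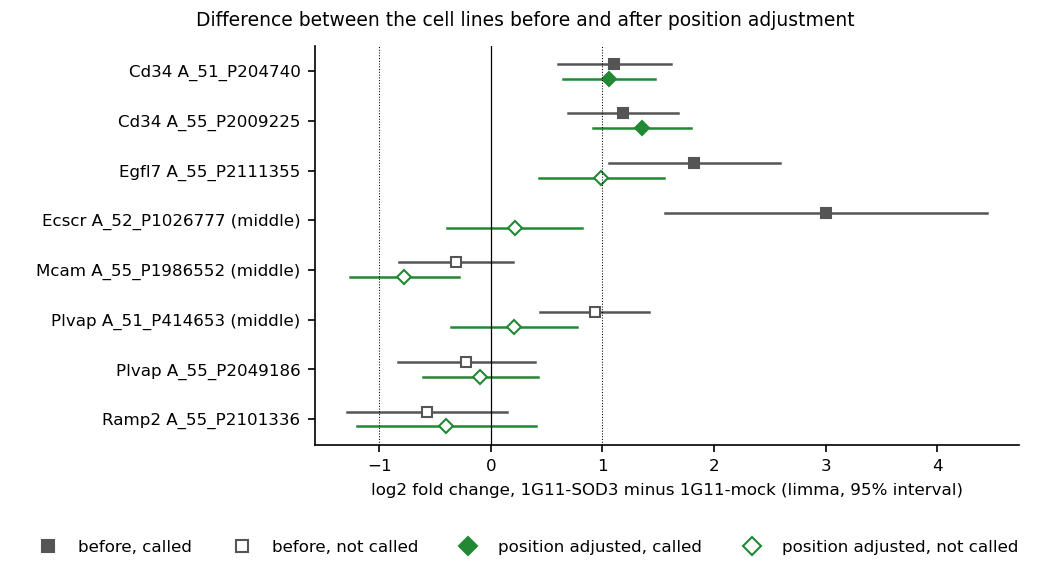
Log2 fold change (x axis, 1G11-SOD3 minus 1G11-mock, 3 arrays each) of the 8 member probes that were well above background on at least 1 array, before (squares) and after (diamonds) position adjustment, with 95% intervals from limma; filled symbols are called and dotted lines mark 2-fold. Both Cd34 probes stay filled, Ecscr moves from 3.0 to 0.21 and Egfl7 from 1.82 to 0.99.

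Egfl7 was higher on every 1G11-SOD3 array, but the size of the difference depended on the place of its spot. Its probe had log2 intensities of 9.05, 8.73 and 7.97 in 1G11-mock, against 10.84, 10.67 and 9.72 in 1G11-SOD3 replicates. Replicate 3 was the lowest in both cell lines, and the groups did not overlap. The difference was 3.53-fold (log2 1.82 ± 0.35 SE, limma adjusted p = 0.0175). The fitted pattern at this spot, in row 123 and column 72, was lower by 1.15 than the mean of the 6 arrays on 1G11-mock replicate 3 and higher by 0.36 to 0.49 on the 1G11-SOD3 arrays. After adjustment the 1G11-mock arrays fell within 8.95 to 9.06, and the 1G11-SOD3 arrays had 10.37, 10.21 and 9.40. The groups remained apart, as did 19.5% of all probes, with a 1.98-fold difference (log2 0.99, 95% interval 0.43 to 1.55) that was no longer called (limma adjusted p = 0.0993). It was called in the fit without 1G11-SOD3 replicate 3 (log2 1.29, adjusted p = 0.0255) and in none of the other 5.

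Ecscr had the largest difference of the 10 genes before adjustment, and after it the groups overlapped. The study names it among the genes that were upregulated in 1G11-SOD3 cells. The log2 intensities were 11.01, 7.77 and 8.17 in 1G11-mock, against 12.41, 11.82 and 11.73 in 1G11-SOD3 replicates, an 8.02-fold difference (log2 3.0 ± 0.66 SE, limma adjusted p = 0.0323). The 1G11-mock arrays spread over 3.24 log2 units, and 1G11-mock replicate 1, the sole member of its group well above background, was closer to the 1G11-SOD3 arrays than to its own group. The spot lies in row 170 and column 72, where the fitted pattern was -2.16 and -2.27 for 1G11-mock replicates 2 and 3, 0.17 for replicate 1, and between 0.97 and 1.67 on the 1G11-SOD3 arrays. This pattern alone differed by 2.84 between the cell lines. With it taken off, the values were 10.85, 9.93 and 10.36 for 1G11-mock, with 10.75, 10.88 and 10.14 for 1G11-SOD3. The remaining log2 fold change of 0.21 had a 95% interval of -0.39 to 0.82 (limma adjusted p = 0.79). A change of up to 1.76-fold thus remained within its error, which did not include the error of the pattern taken off. Ecscr has no probe elsewhere on the array.

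Plvap was measured by 2 probes that differed before adjustment. Probe A_51_P414653, in row 169 and column 63 of the middle, had 7.86, 8.04 and 7.76 in 1G11-mock replicates, none of them well above background, and 9.05, 8.72 and 8.69 in those of 1G11-SOD3. Before adjustment the signal was at least 1.66-fold higher on the 1G11-SOD3 arrays (measured log2 means 7.89 and 8.82). After adjustment the same comparison gave 1.10-fold, which is no lower bound, since the 95% interval of the adjusted log2 fold change, -0.36 to 0.77, included a decrease. The call rests on the measured log2 fold change of 0.93 (limma adjusted p = 0.0488), less than the 2-fold required. Probe A_55_P2049186, outside the middle, had 7.65, 7.74 and 8.44 against 7.35, 7.88 and 7.95, overlapping groups of which 1 array each was well above background. The log2 fold changes of the probes, 0.93 and -0.22, became 0.21 and -0.095 after adjustment (limma adjusted p = 0.78 and 0.90), and the gap between them closed from 1.15 to 0.30. The adjusted groups of the first probe overlapped, since 1G11-mock replicate 3 (8.74) lay above all 1G11-SOD3 arrays (8.25 to 8.62).

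Mcam also had 2 probes, and they disagreed on whether the gene was measured at all. Probe A_55_P1986552, at the edge of the middle in row 249 and column 106, had 12.95, 13.47 and 13.49 in 1G11-mock replicates, close to the 13.05, 13.01 and 12.91 of 1G11-SOD3. The difference was not called before (log2 -0.31, 95% interval -0.83 to 0.20, limma adjusted p = 0.60) or after adjustment (log2 -0.78, interval -1.26 to -0.29, adjusted p = 0.138), although the adjusted groups did not overlap. Probe A_55_P1986551, at row 285 and column 1, was well above background on none of the 6 arrays.

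The sequence of the bright Mcam probe is a simple repeat for 20 of its bases, shown in capitals above. On the whole array 75 probes (0.135%) hold at least 8 successive TG or GT units. Of these, 73 were well above background on all 6 arrays (97.3%), against 29.4% of all probes, and their median log2 intensity was 13.42 against 7.47. Their position-adjusted log2 fold change had a median of -0.29, with a 10th percentile of -0.93 and a 90th of 0.034, a range that takes in the -0.78 of the Mcam probe. How much of the Mcam signal comes from its own transcript was not tested, and the gene has no other probe above background.

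**Figure D4:**
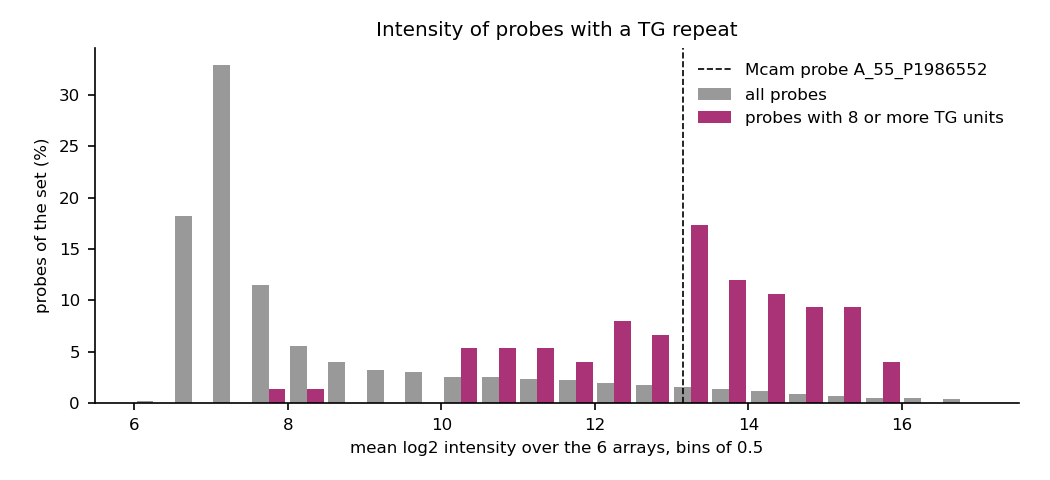
Share (y axis, percent of each set) of all 55681 probes (gray) and of the 75 probes with at least 8 successive TG or GT units (purple) in bins of 0.5 of the mean log2 intensity over the 6 arrays (x axis); the dashed line is the bright Mcam probe. The repeat-bearing probes lie mostly above 10, and the Mcam probe lies among them.

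Ramp2 was well above background on all 6 arrays, without a called difference. Its log2 intensities were 10.51, 10.84 and 10.62 for 1G11-mock, next to 10.69, 10.26 and 9.30 for 1G11-SOD3. The groups overlapped, and 1G11-SOD3 replicate 3 stood 0.97 below the next array. The log2 fold change was -0.57 (95% interval -1.29 to 0.14, limma adjusted p = 0.47) and -0.40 after adjustment (interval -1.20 to 0.41, adjusted p = 0.69). Without 1G11-SOD3 replicate 3 the adjusted value was 0.13. Calcrl, the receptor that RAMP2 accompanies, had log2 intensities of 6.85 to 7.30 and was well above background on no array.

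The intensities of the other unmeasured members were likewise low in both cell lines. Emcn ran from 6.67 to 7.39, Cd93 from 6.71 to 7.64, and the Clec14a probes from 6.77 to 7.42 and from 6.51 to 7.28. No fold change is given for them.

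Genes that act with the members were looked at by list, by the brightest probe of each gene. Of the 8 other genes of the adrenomedullin and CGRP axis, 2 were well above background on all 6 arrays and none was called. These were Ramp1, an accessory subunit that turns CALCRL into the CGRP receptor (log2 fold change -0.021 before and -0.086 after adjustment), and Crcp, a component of the CGRP receptor (-0.21 and 0.18). Adm, which codes for the ligand adrenomedullin, was above background on 1 array and Calcr and Ramp3 on none.

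Of the lectin receptors related to Clec14a and Cd93 and their multimerin ligands, 1 of 4 was called. Cd248 (endosialin), a lectin of pericytes and fibroblasts, was higher in 1G11-SOD3 cells by 2.07 on the log2 scale (limma adjusted p = 0.0131) and by 1.40 after adjustment (adjusted p = 0.021). Thbd (thrombomodulin), well above background on all 6 arrays, had log2 fold changes of -0.28 and -0.14, and Mmrn2, the multimerin that both receptors bind, of 0.29 and 0.33 on 5 arrays above background. None of 5 sialomucin genes related to Cd34 was called: Podxl (podocalyxin) was above background on all 6 arrays with -0.32 and -0.027. Egfl8, the relative of Egfl7, had -0.22 and 0.020.

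All 6 genes of the caveolae, where PLVAP resides, were well above background on all 6 arrays, and none was called before adjustment. Cav1 (caveolin-1) had a log2 fold change of 0.89 (limma adjusted p = 0.0556) and was called higher after adjustment (1.17, adjusted p = 0.0096). Cavin2, whose spot lies in the middle, had 2.05 before and -0.17 after, and was called in neither. Cav2, Cavin1, Cavin3 and Ehd2 had adjusted values between -0.0072 and 0.33.

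Among the 15 other endothelial markers, Vwf was called lower in 1G11-SOD3 cells and none was called higher. Vwf, the carrier of factor VIII that endothelial cells store, had a log2 fold change of -1.65 (limma adjusted p = 0.0034) and of -1.51 after adjustment (adjusted p = 0.0199). The largest differences without a call before adjustment were those of Esam (1.22, and -0.79 after adjustment), Flt1 (1.07 and 0.21), both with spots in the middle, and Eng (-1.05 and -0.57). The median of the 15 was 0.0087 before and -0.020 after adjustment, with 6 of them well above background on no array. These are the values of Erg, above background on no array, and of Cldn5, above background on 1. No statement on the measured markers as a set follows from them. The members and the other markers of the same cell type therefore held called genes in both directions, Cd34 higher and Vwf lower.

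Markers of mesenchymal cells, several of which CD34-bearing fibroblasts also express, were called in part. Of 8 fibroblast markers 4 were called higher in 1G11-SOD3 cells, before and after adjustment: Col1a1 (log2 3.1 and 2.35), Col3a1 (1.43 and 1.73), and Col1a2 and Lum, which were well above background on no 1G11-mock array and at least 1.36-fold and 2.24-fold higher. Of 8 pericyte and smooth muscle markers 4 were also called higher, with Acta2 (3.01 and 2.51), Pdgfrb (2.39 and 2.32), Tagln (1.45 and 1.26) and Cnn1 (at least 4.69-fold). The mean log2 intensity over the 8 fibroblast markers was 9.90 to 10.45 for 1G11-mock but 11.11 to 11.97 for 1G11-SOD3, and over the 8 pericyte and smooth muscle markers 8.03 to 8.15 and 8.96 to 9.38. These means include markers well above background on no array (Postn in the former list, and Rgs5, Des and Myh11 in the latter). The fibroblast means also include Dcn, whose high value on 1G11-SOD3 replicate 3 is given below. Of the defining markers, Pdgfra was well above background on all 6 arrays, with log2 fold changes of 0.52 and 0.41 that were not called, and Rgs5, Des and Myh11 were so on none. Dcn (decorin), also measured on all 6 arrays, ran from 14.04 to 14.78 in 1G11-mock and was lower in 1G11-SOD3 replicates 1 and 2 (13.51 and 13.59) but higher in replicate 3 (17.05). The part of these markers in the Cd34 result was not tested. Of the lymphatic endothelial markers, Pdpn was called higher (2.59 and 2.26), while Prox1, which defines that cell type, was well above background on no array. None of 7 epithelial and 8 leukocyte markers was called. Of the epithelial markers, 1 was well above background on all 6 arrays and 3, among them Epcam, on none. The former was Krt19, with mean log2 intensities of 16.48 for 1G11-mock and 15.96 for 1G11-SOD3. Of the leukocyte markers, 3 (Itgam, Csf1r and Cd3e) were well above background on all 6 arrays and 5, among them Ptprc, on none.

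**Figure D5:**
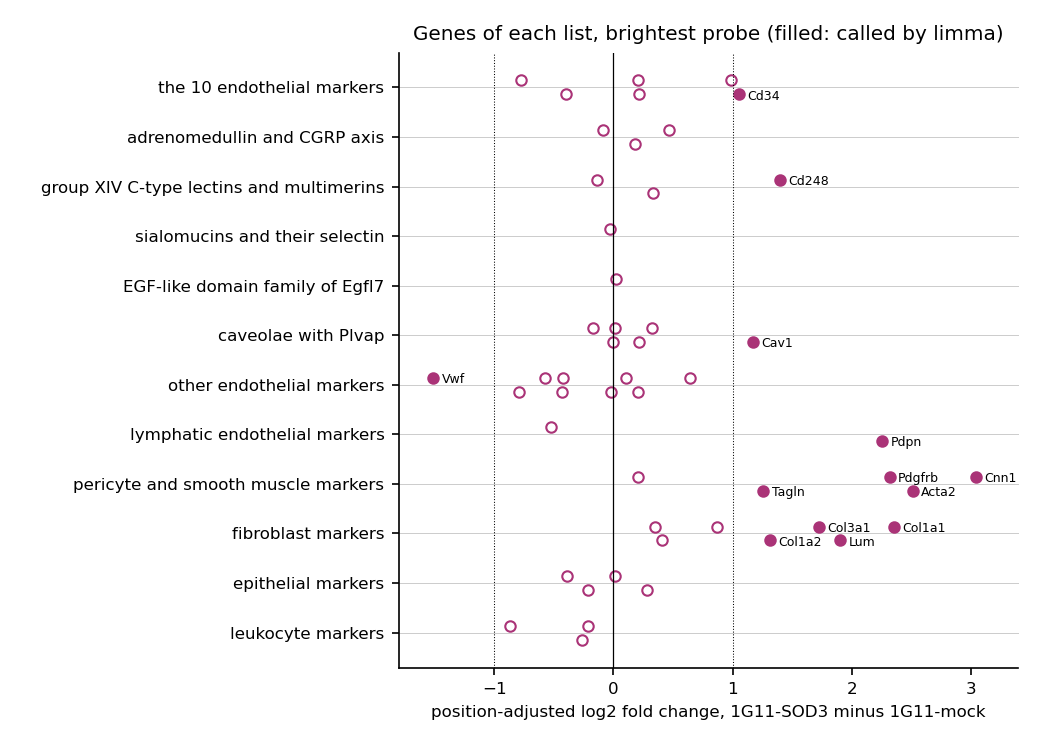
Position-adjusted log2 fold change (x axis, 1G11-SOD3 minus 1G11-mock) of the genes of each list (y axis), by the brightest probe, for genes well above background on at least 1 array; filled and named points are called by limma at over 2-fold (dotted lines) and an adjusted p under 0.05. Cd34 is the single filled point among the 10 endothelial markers, and 8 filled points lie on the pericyte and fibroblast lines.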

How the data were processed

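Total RNA of 3 1G11-mock and 3 1G11-SOD3 samples was hybridized to single-color Agilent mouse arrays on 1 slide. The authors deposited, per array, the Feature Extraction 10.7.3.1 output with raw spot and background intensities and quality flags, besides log2 values of their own, made with normexp and quantile normalization. Here, mean intensities of all spots were corrected with normexp (offset 50) and taken to log2, and those of the non-control spots were quantile normalized. Outlier-marked spots were left out afterwards, when the spots of a probe were averaged. The cell lines were compared with limma 3.58.1 in R 4.3.3 without covariates, p-values being adjusted by Benjamini-Hochberg over all probes. A gene was represented by its brightest probe. The flag "well above background", another deposited column, set which probes were measured. A fold change against a group with none was given as a bound against the lowest signal well above background on each array, or against the measured value where that was higher. Calls used the limma fold change of the measured values, also where those of a group were near background. The number of arrays limits the precision; an exact permutation test of 3 against 3 cannot go below 0.1.

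The position adjustment fitted a smooth surface (80 nearest bright spots) to the deviation of each array from the mean of 6. Intervals and p-values after adjustment take this surface as known and leave out its error. A brightness scaling of this surface was chosen after seeing the data, since the plain surface gave dim middle spots a median log2 fold change of -1.18, against -0.01 with the scaling. The limma fit and the plain surface were tested on simulated data. The simulated dim patch was equally deep at every brightness, so the brightness scaling was not tested there. Replicate numbers were checked for pairing. Same-numbered arrays of the 2 lines deviated together weakly (correlations 0.165, 0.103 and 0.157 across probes), so a fit with the replicate number as a block was run. After position adjustment these correlations were 0.070, 0.145 and 0.249. The unlike pair of 1G11-mock replicate 2 and 1G11-SOD3 replicate 1 then had 0.172, and the other unlike pairs ran from -0.215 to 0.070. Alternatives covered background correction, offset, spot summary, scaling, filters, variance trend, the deposited table, place and single arrays left out. The members and lists were chosen with earlier results of these data known. All members are named, each probe. Of other lists, the called genes (up to 4) are named and, for the partner lists, those well above background on all 6 arrays. Defining markers, the lymphatic markers that were not called, and the epithelial and leukocyte markers above background on all 6 arrays, were added after their values were seen. Figures used Python 3.11.15 and matplotlib 3.10.9.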

Additional observations from a re-analysis of the deposited data

How the results depend on the processing

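The 3 genes and 4 probes called were the same in number under the replicate block (3 and 4), which changed no call, and under 8 further settings. They were 2 and 3 at an offset of 16 and with the middle left out. The counts fell to 1 gene and 2 probes without background correction, with the processed signal and dim probes left out, with the plain and with the brightness-scaled position adjustment, each with or without the middle spots, and with the scaled adjustment and a replicate block. With the processed signal and dim probes left out, the gene was Egfl7 (1.61), the brightest Cd34 probe missing the call (0.97, limma adjusted p = 0.057). With 1 array left out in turn the counts ran from 0 to 2 genes and 0 to 3 probes, with the plain adjustment from 0 to 1 and 0 to 2, and with the scaled one from 0 to 1 and 1 to 2; fewer arrays were fitted. The processed signal at the 75th percentile gave 2 genes higher and 2 lower with the median of all probes at -0.52, and neither of the lower genes was measured above background. Cd34 probe A_55_P2009225 was called under all 19 settings with every array (log2 1.05 to 1.59) and probe A_51_P204740 under 16 (0.97 to 1.24), the exceptions being the offset of 16 and the processed signal with and without dim probes. Before adjustment and with 1 array left out, Egfl7 was called in 2 of 6 fits and Ecscr in 1 (log2 4.02 without 1G11-mock replicate 1, 2.40 without replicate 2).

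Signs turned for values that were not called. Plvap probe A_51_P414653 had -0.38 under the plain adjustment (-0.86 to 0.16 with 1 array left out, beside 0.82 to 1.01 unadjusted and -0.046 to 0.45 with the scaled one). Plvap probe A_55_P2049186 had 0.20 under the plain adjustment, also with the middle left out, and -0.37 to 0.028 (unadjusted), 0.084 to 0.40 (plain) and -0.21 to 0.098 (scaled) with 1 array left out. Ecscr ran from -0.015 to 0.45 and Ramp2 from -0.71 to 0.13 with the scaled adjustment and 1 array left out, and Ramp2 up to 0.17 with the plain one and from -0.88 to -0.18 unadjusted. The cause was not tested. Signal over background limits all this to 8 of 14 probes.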
